A study of Mus musculus with 8 samples.

Results

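The control peripheral retina of the mouse at embryonic day 16.5 is described here from 4 of the 8 libraries of the series, those whose labels give the genotype Pax6alpha-Cre:Ezh2fl/+. The members were taken by that label alone, and no level or spread below uses a value from the conditional knockout group. The set of genes rests on all 8 libraries, since the deposited table lists the same genes for each. The series asks what the histone methyltransferase Ezh2 does in the developing retina, and these libraries are its reference group. RNA came from dissected peripheral retina of C57BL/6 embryos, and total RNA was sequenced.

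The controls are not wild-type animals. They carry the Cre driver Pax6alpha-Cre, which is active in the peripheral retina, together with a floxed Ezh2 allele and a wild-type Ezh2 allele. Where Cre acts, a functional Ezh2 allele is expected to remain beside the deleted one, and cells in which Cre does not act keep both. No library without Cre was used here, so an effect of Cre or of losing the floxed allele on these levels cannot be told apart from the tissue's own state. The labels name separate samples but not the embryo or litter of each, so the spread given here is that between samples and may be partly technical.

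The retina forms from a sheet of dividing progenitors that leave the cell cycle in an ordered sequence. Retinal ganglion cells, horizontal cells, cone photoreceptors and early amacrine cells are born first, whereas most rods, bipolar cells and Müller glia appear around and after birth. Transcription factors such as Pax6 and Rax keep progenitors in their state, and proneural factors of the bHLH class, held in check by Notch signalling, start differentiation. In bulk tissue the level of a marker depends on the number of cells that hold it and on the RNA per cell, and these cannot be told apart here.

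Total counts were 13994825, 14905779, 14943748 and 17346834 in control replicates 1 to 4, and a count of 3 corresponds to 0.214, 0.201, 0.201 and 0.173 CPM, counts scaled to a common library total. The mitochondrial genes in the table took 14.04%, 8.91%, 13.8% and 8.41% of the counts, so replicates 1 and 3 held more than replicates 2 and 4. All 4 libraries held Y-linked transcripts (Ddx3y, Eif2s3y, Kdm5d and Uty summed to 41.9 ± 2.36 FPKM, SD, n = 4), while Xist, the RNA that coats the inactive X chromosome, had 1, 2, 4 and 4 counts. Ezh2 itself stood at 36.1, 38.0, 30.3 and 34.6 FPKM, a mean of 34.8 ± 3.29 (SD, n = 4). FPKM, a count scaled by the length of the gene model and by the counted reads of the library, is the authors' deposited value and is the scale of every level below unless another is named.

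The table held 16096 genes, and 12977 of them (80.6%) had a mean of at least 1 FPKM. A mean of at least 10 FPKM was reached by 5806 genes (36.1%), at least 100 FPKM by 349 (2.17%) and at least 1000 FPKM by 22. The median gene stood at 5.89 FPKM, with quartiles of 1.56 and 15.1 FPKM. This median is set beside the gene lists below. The lowest row sum over the 8 libraries was 18 counts, so a gene without control counts can be in the table through the other group, and counts over all genes depend on both. Absence of a gene from the table gives no level and was not always one of low reads, since 6 of 15 listed mitochondrial genes are not in it.

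On the FPKM scale the transcriptome was concentrated in a small number of genes, most of them short noncoding RNAs. Protein-coding genes took 52.4 ± 3.56% of the summed FPKM and 82.7 ± 2.96% of the counts (SD, n = 4). The 10 most abundant genes took 42.3 ± 3.88% of the summed FPKM and the top 100 took 53.4 ± 3.14% (SD, n = 4). Among reads the concentration was lower, with 16.2 ± 3.02% and 25.6 ± 2.80% of the counts for the top genes by that measure. Dividing by length raises short genes, so both scales are given.

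At the head of the ranking stood mt-Rnr2, the large ribosomal RNA of mitochondria, with 79416, 50202, 78548 and 47746 FPKM in replicates 1 to 4. Rn7sk, the RNA that holds the elongation factor P-TEFb in an inactive complex, followed at 65859, 61768, 59266 and 66145 FPKM. Rpph1 and Rmrp, the RNA subunits of RNase P and RNase MRP, had means of 21104 ± 3251 and 17973 ± 1838 FPKM (SD, n = 4). Rn7sk varied less than the mitochondrial rRNA, with a coefficient of variation (CV, the SD over the mean) of 5.26% against 27.1%.

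Among protein-coding genes the highest levels belonged to histones, tubulin, actin and translation factors. Hist1h4d stood at 1959, 1945, 1758 and 2200 FPKM, and 61 histone genes of the Hist clusters had a median of 208 FPKM. Of the 100 most abundant genes, 26 were such histone genes, which package newly replicated DNA. Together the 61 histone genes took 4.61 ± 0.422% of the summed FPKM (SD, n = 4). The deposited values of 77 cytosolic ribosomal protein genes had a median of 21.2 FPKM and took 1.38 ± 0.0921% (SD, n = 4). Of these, 8 were among the 100 most abundant genes. Members differed widely, with means of 743 FPKM for Rpl8, 22.1 for Rpl3 (CV 43.9%) and 8.74 for Rpl29. How reads shared with copies were counted is not given. The levels of this family are therefore uncertain, and the part of copies was not tested. Tubb5 (1307 ± 51.9), Actb (1209 ± 50.7) and Eef1a1 (1205 ± 62.9 FPKM, SD, n = 4) were similar in level, and their ranges over the 4 libraries overlapped.

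A few high values belong to genes that overlap other genes. Ccdc107, at 1738 FPKM the next protein-coding gene after Hist1h4d, shares 159 bases with Rmrp on the opposite strand of chromosome 4 (mm10). Gm26377 (5090 FPKM), annotated as a miRNA, lies inside Eef1a1, and Gm23134 (1401 FPKM) lies inside Nnat and Blcap. The sources used here do not give whether strand entered the counting, and reads of these overlapping genes cannot be assigned to either partner from the table.

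**Figure D1:**
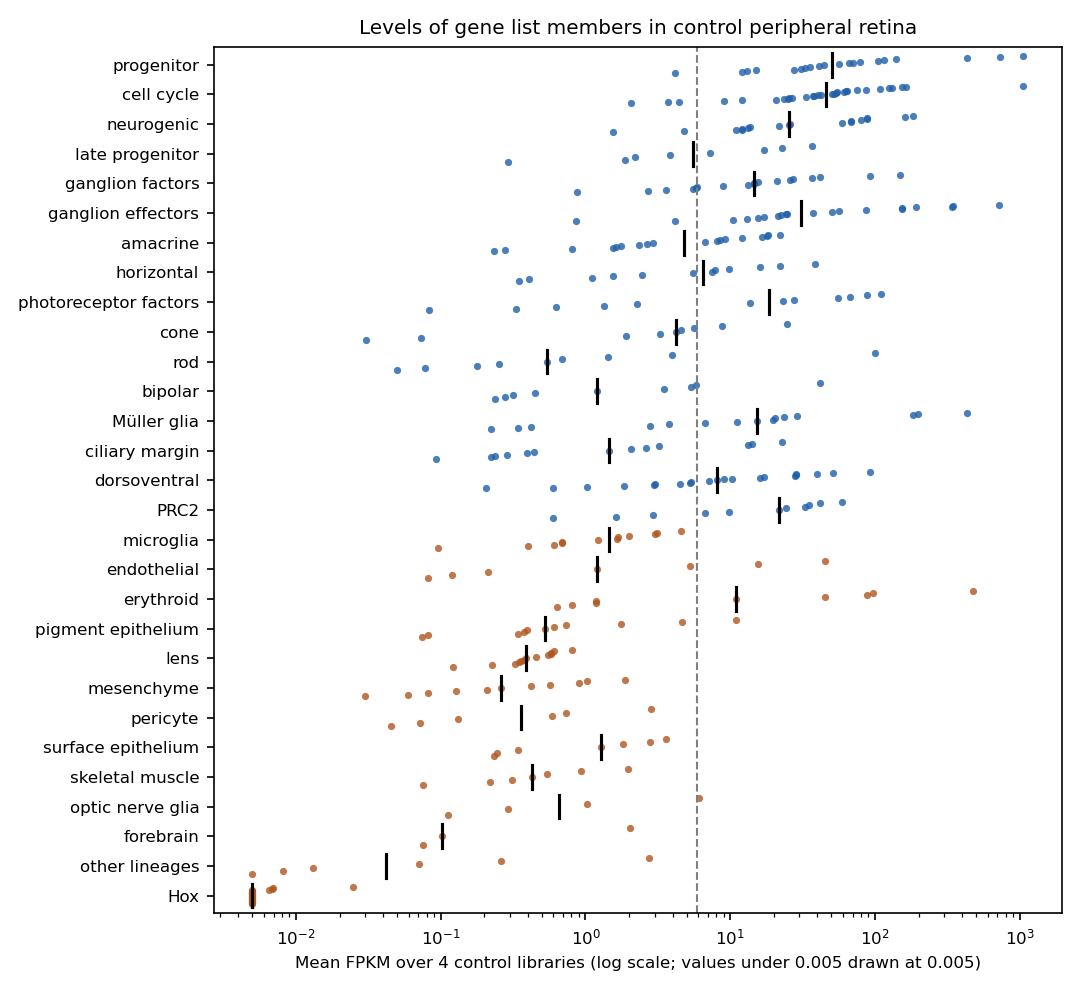
Mean FPKM over the 4 control libraries (log axis) of the genes in 29 lists, 1 point per gene; the black bar is the median of the list and the dashed line the median of all genes, 5.89 FPKM. Progenitor, cell cycle and neurogenic lists lie above the dashed line (medians 50.6, 46.2 and 25.6 FPKM), the rod list below it (0.546 FPKM), and the lens list too (0.390 FPKM, or 0.0954 FPKM without replicate 1).

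Progenitor genes were among the most abundant of all protein-coding genes. All 20 listed members were in the table with at least 1 FPKM, 19 had at least 10 FPKM, and their median of 50.6 FPKM exceeded 94.5% of the genes. Ccnd1, the D-type cyclin that drives retinal progenitors through G1 (ENSMUSG00000070348, mm10 chromosome 7, 144929931 to 144939925, minus strand), ranked 21 in the table. It stood at 977, 1108, 1017 and 1143 FPKM, a mean of 1061 ± 77.4 (SD, n = 4). Replicates 2 and 4 were higher than 1 and 3, by less than 20%.

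Fgf15, a fibroblast growth factor made by progenitors, stood at 656, 776, 733 and 767 FPKM. Its gene lies near Ccnd1 on chromosome 7 (144896531 to 144900953). Dkk3, a secreted protein of progenitors and Müller glia, stood at 394, 446, 445 and 456 FPKM. Both were lowest in replicate 1.

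The homeobox factors of the progenitor state lay below Ccnd1, Fgf15 and Dkk3. Rax stood at 103, 124, 118 and 119 FPKM. The Wnt antagonist Sfrp2 stood at 84.2, 116, 103 and 119 FPKM, which overlapped Rax although the mean was lower.

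Pax6 (56.7 ± 3.46), Six6 (44.4 ± 1.81) and Lhx2 (31.0 ± 1.32 FPKM, SD, n = 4) formed the next tier of eye-field factors. The Notch effectors Hes5 (78.6 ± 9.08) and Hes1 (70.7 ± 2.38) and the factor Sox2 (66.0 ± 5.53 FPKM, SD, n = 4) lay between Rax and Pax6, and the ranges of Hes5 and Hes1, and of Hes1 and Sox2, overlapped. Six3 was the lowest member of the list, at 4.33, 4.22, 3.82 and 4.32 FPKM, below the median gene. The deposited FPKM of Six3 was thus less than 10% of that of Pax6 in the same libraries. Six3 shares 4791 bases with Six3os1 (31.5 FPKM) on the opposite strand. Whether strand entered the counting is not given, so the level of Six3 is uncertain.

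Genes of the cell cycle were high in parallel. Of 30 members, 26 reached 10 FPKM, with a list median of 46.2 FPKM. Top2a, the topoisomerase of S phase and mitosis, stood at 150, 174, 165 and 169 FPKM. The kinase Cdk4 had 154 ± 8.92 FPKM, the replication licensing subunit Mcm6 131 ± 7.81 and the proliferation antigen Mki67 126 ± 9.84 FPKM (SD, n = 4).

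The 3 D-type cyclins differed widely. Ccnd1 stood at 1061 FPKM, Ccnd3 at 4.44 ± 0.243 and Ccnd2 at 2.05 ± 0.362 FPKM (SD, n = 4). Of the list, 21 of 30 genes were lowest in replicate 1 and 18 were highest in replicate 4. Over all 12977 genes with at least 1 FPKM, 42.0% were lowest in replicate 1 and 43.4% highest in replicate 4, so the direction is shared with the table as a whole.

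Neurogenic genes came next in level. The list median was 25.6 FPKM, and 16 of 18 members reached 10 FPKM. Atoh7, the bHLH factor required for ganglion cells (ENSMUSG00000036816, mm10 chromosome 10, 63099651 to 63101279, plus strand), stood at 147, 201, 182 and 201 FPKM. Replicate 1 was the lowest and the other 3 lay close together.

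Hes6, which promotes neuronal differentiation, had 161 ± 11.9 FPKM and overlapped Atoh7. Neurod1 (88.2 ± 5.20) and Neurod4 (80.3 ± 4.54 FPKM, SD, n = 4) overlapped in range, and Neurog2 stood at 68.2 ± 4.12 FPKM. Notch1 and the Notch ligands were lower. The receptor Notch1 stood at 26.0 ± 0.606 FPKM and its ligands Dll1, Dll4 and Dll3 at 25.3 ± 1.29, 11.97 ± 0.238 and 10.9 ± 0.760 FPKM (SD, n = 4). The ligand Jag1 had 1.55 ± 0.0555 FPKM, the lowest of the list.

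Factors of late progenitors were mixed. Their median of 5.56 FPKM was close to that of all genes, with Sox8 at 35.6, 32.4, 39.9 and 39.3 FPKM. Hey1, a Notch target, stood at 22.9 ± 1.13 and Zeb2 at 17.1 ± 0.639 FPKM (SD, n = 4). The nuclear factor I genes, which mark late progenitors, were low, with Nfib at 3.85 ± 0.223, Nfia at 2.19 ± 0.101 and Nfix at 0.291 ± 0.0693 FPKM (SD, n = 4).

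**Figure D2:**
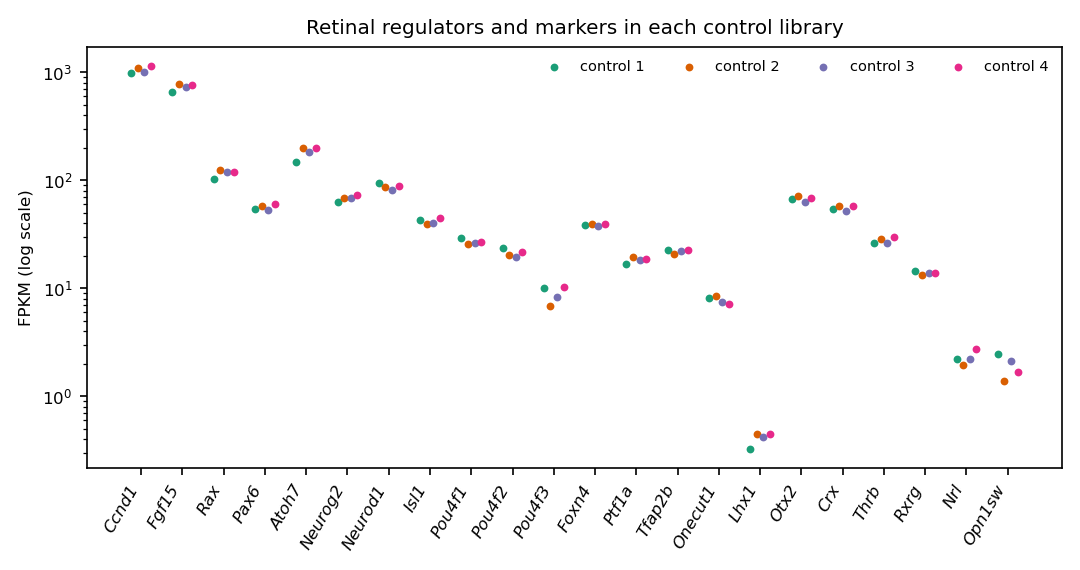
FPKM (log axis) of 22 retinal regulators and markers in each of the 4 control libraries, 1 colour per library. Ccnd1 and Fgf15 lie at the top (977 to 1143 and 656 to 776 FPKM), Lhx1 at the bottom (0.326 to 0.446 FPKM), and the points of a gene lie close together in nearly every case, with Opn1sw (1.39 to 2.46 FPKM) spread more widely.

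Among the lists of differentiated cells, the ganglion cell effectors had the highest median. This list, made of cytoskeletal, axonal and RNA-binding proteins of neurons, stood at a median of 31.0 FPKM, and 18 of 20 members reached 10 FPKM. Tubb3, the neuronal beta tubulin, stood at 697, 690, 721 and 787 FPKM. The synuclein Sncg stood at 358, 339, 314 and 377 FPKM and the growth cone protein Gap43 at 342, 327, 329 and 367 FPKM.

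Those 3 genes were highest in replicate 4, by less than 20% over the other libraries for Tubb3 and Gap43. The neurofilament genes were ordered Nefl (153 ± 10.4), Nefm (56.6 ± 4.47) and Nefh (0.861 ± 0.0915 FPKM, SD, n = 4). Nefh encodes the heavy subunit, which appears as axons mature. Thy1, a surface protein of mature ganglion cells, was also low at 5.19, 4.14, 3.12 and 4.05 FPKM. Many effectors, such as Tubb3, Gap43 and Stmn2, are shared by other young neurons and do not mark ganglion cells alone.

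Transcription factors of ganglion cells had a median of 14.6 FPKM, with 11 of 18 at 10 FPKM or more. Sox4 (149 ± 6.15) and Sox11 (92.2 ± 4.11 FPKM, SD, n = 4), which newborn neurons of many kinds share, led the list. Isl1, a LIM homeobox factor of ganglion and other retinal cells, stood at 42.8, 39.2, 40.6 and 44.6 FPKM. Ebf3 overlapped it at 36.7 ± 2.60 FPKM (SD, n = 4).

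The 3 class IV POU factors were clearly ordered. Pou4f1 stood at 29.4, 25.5, 26.4 and 26.7 FPKM, Pou4f2 at 23.5, 20.1, 19.3 and 21.7 FPKM, and Pou4f3 at 9.99, 6.90, 8.33 and 10.2 FPKM. The values of these genes did not overlap between neighbours. Pou4f2 acts downstream of Atoh7, whose FPKM was higher in each library. Ebf2 was the lowest member at 0.874 ± 0.0580 FPKM (SD, n = 4).

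Amacrine genes were lower than ganglion genes, and their regulators stood above most of their transmitter genes. The list median was 4.83 FPKM, and 5 of the 18 members in the table reached 10 FPKM. The specification factors Tfap2b (22.1 ± 0.930), Ptf1a (18.4 ± 1.15), Prdm13 (18.0 ± 0.917) and Barhl2 (12.01 ± 1.14 FPKM, SD, n = 4) stood at 10 FPKM or more. Ptf1a and Prdm13 overlapped in range.

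Transmitter genes spread over a wide range. Gad2, an enzyme that makes GABA, stood at 7.17, 9.84, 7.51 and 7.88 FPKM, while its paralogue Gad1 stood at 0.262, 0.140, 0.254 and 0.272 FPKM. The vesicular transporter Slc32a1 had 2.68 ± 0.207 FPKM (SD, n = 4). The cholinergic genes Chat and Slc18a3 are not in the table analysed here, and the choline transporter Slc5a7 had 0.804 ± 0.1002 FPKM (SD, n = 4).

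Horizontal cell genes ranged widely, with no clear order by role. Foxn4, which acts in progenitors of horizontal and amacrine cells, was steady at 38.3, 39.3, 37.7 and 39.8 FPKM. The tropomyosin Tpm3, used by many cell types, stood at 16.1 ± 1.02 FPKM (SD, n = 4). Prox1 stood at 9.76 ± 0.361, Onecut1 at 7.82 ± 0.624 and Onecut2 at 7.47 ± 0.314 FPKM (SD, n = 4), and the last pair overlapped. Onecut1 shares 29556 bases with Gm20649 (9.54 FPKM) on the same strand, so the level of Onecut1 is uncertain. Lhx1, a factor of horizontal cells after their birth, stood at 0.326, 0.446, 0.417 and 0.443 FPKM, and the calcium-binding protein Calb1 at 0.339, 0.304, 0.359 and 0.392 FPKM. The list median was 6.50 FPKM, near the median of all genes.

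Photoreceptor factors were abundant, but few effector genes were. The factor list had a median of 18.4 FPKM, with 7 of 12 at 10 FPKM or more. Rorb (110 ± 3.47), a nuclear receptor, led it. Otx2, which commits precursors to the photoreceptor fate, stood at 67.2, 71.0, 63.4 and 68.2 FPKM. Crx, its target and a driver of photoreceptor genes, stood at 54.8, 57.7, 52.3 and 58.3 FPKM, and Otx2 exceeded it in each library.

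The cone factors Thrb (27.7 ± 1.62) and Rxrg (13.8 ± 0.446) and the precursor factor Prdm1 (23.0 ± 0.842 FPKM, SD, n = 4) were above the median of all genes. The rod factor Nrl stood lower, at 2.22, 1.96, 2.22 and 2.72 FPKM, and its target Nr2e3 had 0, 7, 1 and 10 counts in the 4 libraries. Neither rod factor reached the level of Thrb or Rxrg in any library. Sall3, another member of the factor list, had a mean of 1.35 FPKM and lay below Nrl in each library.

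Of 12 cone effector genes, 9 were in the table and 7 of these had at least 1 FPKM. The cone transducin subunits Gngt2 (24.8 ± 2.49), Gnb3 (8.71 ± 0.661) and Gnat2 (4.59 ± 0.223) and the phosphodiesterase Pde6c (4.22 ± 0.337 FPKM, SD, n = 4) were found in each library. Short-wave opsin, Opn1sw, stood at 2.46, 1.39, 2.12 and 1.67 FPKM, with replicate 1 highest and replicate 2 lowest. Arr3, Kcne2 and Opn1mw are not in the table analysed here.

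Of 15 rod effector genes, 9 were in the table, and their median was 0.546 FPKM. Gnb1 was the exception at 99.6 ± 1.10 FPKM (SD, n = 4), a G protein subunit that many cell types use. Without it the other 8 summed to 7.46, 6.65, 7.22 and 7.34 FPKM. Gnat1, the rod transducin subunit, had 0.179 ± 0.0942 FPKM and Sag, rod arrestin, 0.05005 ± 0.0199 FPKM (SD, n = 4). Others, among them Pde6a, Pde6b, Cnga1, Cngb1 and Rcvrn, are not in the table analysed here.

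Late-born classes beyond rods were low or shared their genes with progenitors. Of 13 bipolar genes 9 were in the table, with a median of 1.21 FPKM; the highest, Isl1, is shared with ganglion cells. Müller glia genes had a median of 15.4 FPKM, but the leading members Dkk3, Glul (198 ± 9.73) and Vim (184 ± 7.10 FPKM, SD, n = 4) are also found in progenitors. The glutamate transporter Slc1a3 (29.0 ± 1.26) and the lipid carrier Apoe (23.4 ± 1.89 FPKM, SD, n = 4) followed, and 9 of the 15 members in the table reached 10 FPKM. Others were lower, with Rlbp1 at 3.77 ± 0.463 and the water channel Aqp4 at 0.224 ± 0.0496 FPKM (SD, n = 4).

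Genes of the ciliary margin, the rim where the retina meets the future ciliary body, were mostly low although the tissue was dissected from the periphery. The median was 1.46 FPKM over 13 members in the table. Zic2 (22.7 ± 0.895), Rdh10 (14.1 ± 1.203) and Zic1 (13.3 ± 0.957 FPKM, SD, n = 4) stood above 10 FPKM. Msx1, a factor of the margin, had 8, 3, 3 and 3 counts, and Otx1 stood at 0.224 ± 0.0731 FPKM (SD, n = 4).

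Subunits of Polycomb repressive complex 2, the complex in which Ezh2 methylates histone H3, had a median of 21.7 FPKM. Beside Ezh2, the core subunits Suz12 (32.7 ± 1.97) and Eed (21.7 ± 2.61) and the histone chaperones Rbbp7 (59.5 ± 2.66) and Rbbp4 (41.8 ± 3.11 FPKM, SD, n = 4) were of similar order. Ezh1, the paralogue of Ezh2, stood at 2.63, 3.13, 2.95 and 2.99 FPKM, below Ezh2 in each library. Phf19 was the lowest, at 0.594 ± 0.1001 FPKM (SD, n = 4).

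Several dorsal and ventral genes lay on opposite sides of their means in replicate 2. Tbx2, a dorsal T-box factor, stood at 25.9, 33.0, 24.4 and 29.0 FPKM, and the dorsal retinoic acid enzyme Aldh1a1 at 84.1, 110, 89.3 and 88.4 FPKM. Efnb2, a dorsal ephrin, stood at 43.6, 59.8, 48.0 and 53.2 FPKM. All 3 were highest in replicate 2.

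The ventral genes ran the other way. Vax2, a ventral homeobox factor, stood at 25.8, 22.5, 32.1 and 33.9 FPKM, and the ventral enzyme Aldh1a3 at 36.7, 33.4, 43.0 and 46.9 FPKM. Smoc1, a matrix protein, stood at 8.76, 7.21, 9.20 and 11.1 FPKM. These 3 were lowest in replicate 2 and highest in replicate 4.

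Of 8 dorsal genes, 6 were highest in replicate 2, where 35.2% of all genes with at least 1 FPKM were highest. Of 7 ventral genes, 5 were lowest in replicate 2, where 12.4% of all such genes were lowest, and 6 were highest in replicate 4, against 43.4%. Averaged as a percentage of each gene's own mean, the dorsal genes stood at 89.9, 105.7, 89.8 and 109.5% and the ventral genes at 93.5, 86.8, 101.6 and 117.0%, so by this measure replicate 4 was highest for both. The dorsal average includes Bmp4, with 6, 4, 5 and 14 counts. The genes were sorted into dorsal and ventral after their values were seen, so these counts are a description. Whether the dissected pieces differed in position was not tested.

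**Figure D3:**
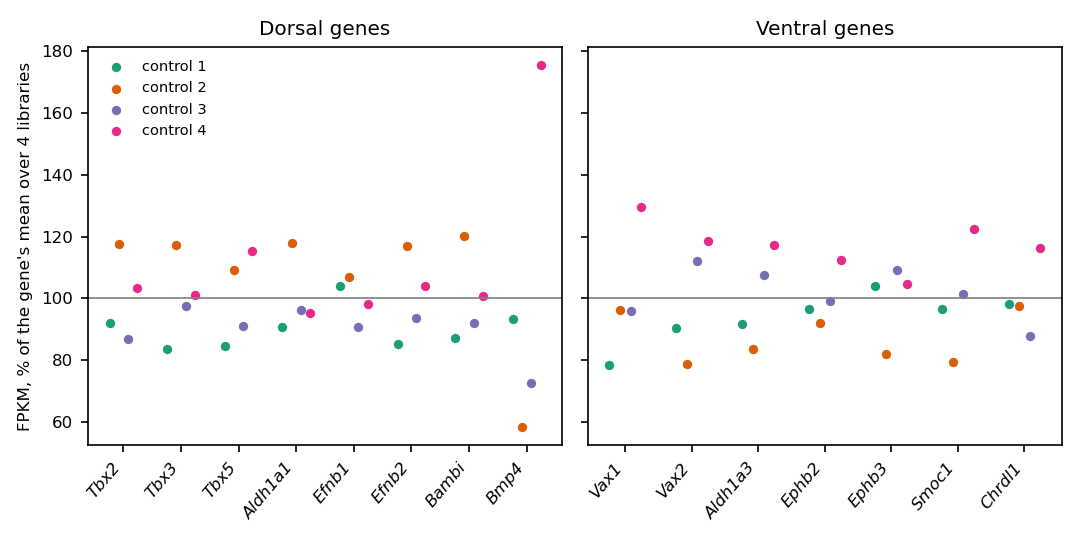
FPKM of 8 dorsal and 7 ventral genes in each control library, as a percentage of the gene's own mean over the 4 libraries; the grey line is 100%. Replicate 2 lies highest for 6 dorsal genes and lowest for 5 ventral genes, and Bmp4, with 4 to 14 counts per library, spreads most widely.

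Markers of tissues other than retina took a small share of the transcripts. The 86 genes of 10 non-retinal lists that were in the table took 0.197%, 0.386%, 0.0676% and 0.116% of the summed FPKM in replicates 1 to 4, a mean of 0.192 ± 0.140% (SD, n = 4). Without replicate 2 the mean was 0.127%. Leaving out the red cell genes lowered it to 0.0320 ± 0.00346% (SD, n = 4).

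Red blood cell genes made up most of that share. The adult beta globin Hbb-bs stood at 512, 1029, 119 and 243 FPKM, and the alpha globin Hba-a1 at 135, 189, 22.2 and 43.0 FPKM. Alas2, the first enzyme of heme synthesis in red cells, stood at 10.97, 24.6, 2.98 and 5.23 FPKM. All 9 erythroid genes in the table were highest in replicate 2, and 8 were lowest in replicate 3, where 38.2% of all genes with at least 1 FPKM were lowest. Their summed level was 720 ± 613 FPKM (SD, n = 4), and 441 FPKM without replicate 2.

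Lens genes were near 0 in replicates 2, 3 and 4 and higher in replicate 1. The alpha crystallin Cryaa stood at 3.19, 0.0565, 0 and 0 FPKM, and 9 crystallin genes summed to 13.5, 1.06, 0.305 and 1.34 FPKM. The other 4 lens genes summed to 1.74, 1.94, 1.90 and 1.12 FPKM, so the excess lay in the crystallins. Crystallins are the refractive proteins of lens fibres. The median of the lens list was 0.390 FPKM, and 0.0954 FPKM without replicate 1.

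Pigment genes followed another order. Pmel, a matrix protein of melanosomes, stood at 1.91, 8.22, 2.36 and 5.98 FPKM, and Dct, an enzyme of melanin synthesis, at 0.948, 3.65, 0.858 and 1.63 FPKM. Replicates 2 and 4 were above 1 and 3 for both genes. The pigment epithelium list without Rdh5, which stood at 10.96 ± 1.44 FPKM, summed to 4.99, 17.3, 4.88 and 10.9 FPKM. Rdh5 shares 5007 bases with Bloc1s1 (24.7 FPKM) on the same strand, so the level of Rdh5 is uncertain.

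The summed vessel and microglia lists were steadier, with CVs of 4.78% and 10.2%, but single members were not all so. Kdr, a receptor of vascular endothelial growth factor, stood at 45.2 ± 1.72 FPKM (SD, n = 4), and Ramp2 and Cldn5 at 15.5 ± 1.29 and 5.27 ± 0.620 FPKM (SD, n = 4). Egfl7 ran from 1.01 to 1.44 FPKM, but it shares 6482 bases with Gm20532 (8.62 FPKM) on the same strand, so its level is uncertain. The endothelial junction genes Pecam1 and Cdh5 stood at 0.120 ± 0.0493 and 0.0817 ± 0.0712 FPKM (SD, n = 4). Cdh5 had 2, 11, 2 and 5 counts, a CV of 87.1%. The 7 endothelial genes in the table thus spread over a wide range of levels, and Tek, Tie1, Emcn, Esam and Sox17 are not in the table analysed here. They summed to 67.5 ± 3.23 FPKM, and the 5 without Kdr and Ramp2 to 6.89 ± 0.568 FPKM (SD, n = 4). Ramp2 shares 5840 bases with Vps25 (31.3 FPKM) on the same strand, so its level is uncertain. Kdr made up most of the endothelial sum, and Kdr and Ramp2 are both counted in the non-retinal share above. The complement gene C1qa stood at 3.78, 4.77, 4.05 and 5.60 FPKM, and the 12 microglia genes summed to 19.7 ± 2.02 FPKM (SD, n = 4). Among them C1qc had a CV of 31.2%.

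Mesenchyme, muscle and Hox genes were low. The mesenchyme list had a median of 0.262 FPKM, with Col1a1 highest at 1.39, 2.17, 0.652 and 3.26 FPKM. The skeletal muscle list had a median of 0.424 FPKM and was lowest in replicate 3 for 6 of 7 genes, most of them under 1 FPKM, where 38.2% of all genes with at least 1 FPKM were lowest. Hox genes pattern the trunk and are known targets of Polycomb. Of 39 listed, 23 were in the table, and 19 of these had no count in any control library. Over all genes in the table, 26 (0.162%) had no control count. Which genes without control counts are listed depends on all 8 libraries, so these numbers do not rest on the controls alone.

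**Figure D4:**
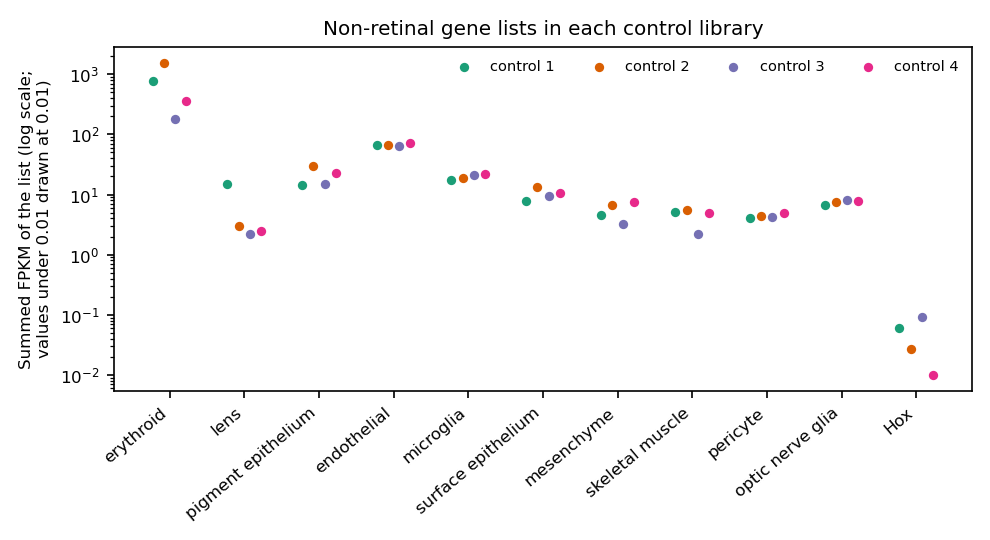
Summed FPKM (log axis, values under 0.01 drawn at 0.01) of 11 gene lists of other tissues in each control library, 1 colour per library. Erythroid genes range from 181 in replicate 3 to 1558 FPKM in replicate 2, lens genes from 2.20 to 15.2 FPKM with replicate 1 highest, and Hox genes lie under 0.1 FPKM in each library.

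The spread between the 4 libraries was small for most genes. The median CV was 7.44% over the 12977 genes with at least 1 FPKM, where counting error alone gives a median of 4.60%. It was 8.82% for genes of 1 to 10 FPKM (counting error 6.74%), 6.31% for 10 to 100 FPKM (2.996%) and 6.45% for 100 to 1000 FPKM (1.46%). Below 1 FPKM the median CV was 25.7%, beside 27.1% for counting error. A CV taken from 4 values tends to fall below the one computed from the mean count, so these pairs are approximate. They do not settle whether libraries differed below 1 FPKM. The common biological CV estimated by edgeR was 6.64%.

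The 10 genes with the lowest spread, among those of at least 5 FPKM and 100 counts, lay above the median gene in level. Alg2, a mannosyltransferase, stood at 46.4, 46.1, 46.3 and 46.6 FPKM, a CV of 0.381%. The kinase Pak1 had a CV of 0.532%, and Mfng, which modifies Notch, 0.748%. With 8415 genes ranked, CVs below counting error occur among so many sets of 4 values and do not show that these genes are held more constant than others.

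Among the genes of at least 5 FPKM and 100 counts, those with the highest spread included red cell genes and genes with close copies elsewhere in the genome. The 4 globins Hba-a2, Hbb-bt, Hbb-bs and Hba-a1 and Alas2 had CVs of 80.4% to 99.6%. Rprl3, a copy of the RNase P RNA gene, had 22, 15011, 31 and 18833 counts. Its parent Rpph1 had 112299, 85486, 106210 and 105467 counts.

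Rprl3 was thus nearly empty in replicates 1 and 3 and high in replicates 2 and 4. Summed over Rpph1, Rprl2 and Rprl3 the CV was 7.47%, against 15.4% for Rpph1 alone. The processed pseudogene Gm8730 had 4, 7, 387 and 476 counts, and its parent Rplp0, a protein of the large ribosomal subunit, had 5815, 6563, 4639 and 5448. Gm8730 was thus low in replicates 1 and 2 and high in 3 and 4, a division unlike that of Rprl3.

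A further pair of copies were each set apart by a single library. Gm11223, a processed pseudogene, had 1157, 1327, 76 and 1540 counts, and its parent Stmn1, a regulator of microtubules, had 1346, 1422, 1225 and 1652. Adding the copy raised the CV from 7.40% for Stmn1 to 30.1%. Gm26825 and Gm15459, listed with the same counts in each library, had 1395, 1685, 1356 and 49, while Hspa8, a chaperone, had 3359, 3903, 3259 and 8371.

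Replicate 3 stood apart for Gm11223 and replicate 4 for Gm26825. Summing Hspa8 and Gm26825 gave a CV of 20.4%, against 40.8% for Hspa8 alone. The aligned transcripts show the letters that separate copy and parent. A window without gaps, of 80 bases, is printed for 3 pairs, in the sense of the transcript, with capitals at the bases that differ within the pair. The sequences are GENCODE M21 transcripts on mm10.
Gm8730: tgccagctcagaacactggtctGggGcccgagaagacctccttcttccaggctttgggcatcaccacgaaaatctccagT
Rplp0: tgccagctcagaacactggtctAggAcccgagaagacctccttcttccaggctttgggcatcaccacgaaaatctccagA
Gm11223: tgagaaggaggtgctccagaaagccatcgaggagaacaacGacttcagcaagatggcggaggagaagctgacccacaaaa
Stmn1: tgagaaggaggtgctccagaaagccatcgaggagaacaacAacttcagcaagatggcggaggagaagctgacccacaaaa
Rprl3: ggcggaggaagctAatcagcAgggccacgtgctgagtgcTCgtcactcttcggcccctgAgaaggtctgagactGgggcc
Rpph1: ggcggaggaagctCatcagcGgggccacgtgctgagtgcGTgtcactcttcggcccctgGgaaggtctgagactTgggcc

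Over the whole alignment Gm8730 (chromosome 8, 102864845 to 102865798, minus strand) shared 98.7% of 954 bases with Rplp0 (chromosome 5, 115559467 to 115563727). Gm11223 (chromosome 4, 69925630 to 69926079, minus strand) shared 99.8% of 450 bases with Stmn1, and Rprl3 (chromosome 8, 3803069 to 3803358, minus strand) 86.0% of 257 aligned bases with Rpph1, with 15 differences and 21 gap bases, so that pair is less alike than its window. The sources used here do not give how reads that fit several places were counted. The levels of these genes are therefore uncertain between copy and parent, and the part of read placement in their spread was not tested.

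Gm26924, Gm15564 and Lars2 varied together. Gm26924 had 52115, 88331, 25598 and 14747 counts, and Lars2, the mitochondrial leucyl-tRNA synthetase, had 12365, 16831, 7425 and 3739. Gm15564, which shares 72 aligned bases with Lars2 at 98.6% identity, had 6542, 10268, 3961 and 2320. All 3 were highest in replicate 2 and lowest in replicate 4. Gm26917, beside Gm26924 on chromosome 17, ran otherwise, with 32277, 43769, 56912 and 54175 counts. The part of shared sequence in the counts of Lars2 was not tested.

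**Figure D5:**
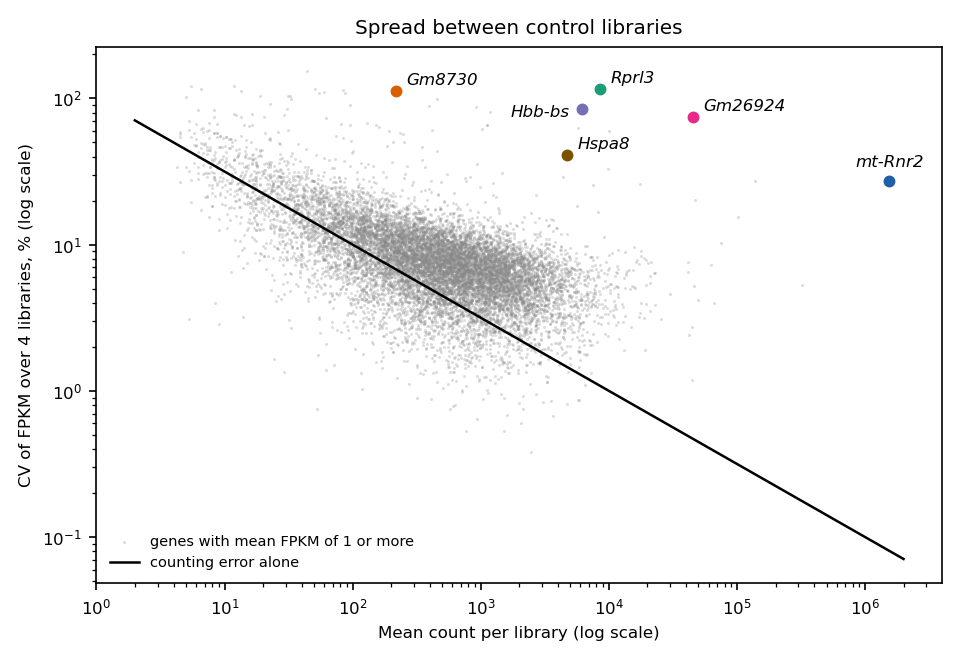
CV of FPKM over the 4 control libraries against the mean count per library (both axes log) for the 12977 genes with at least 1 FPKM; the line is the CV that counting error alone gives. Rprl3 (115%), Gm8730 (112%), Hbb-bs (85.0%), Gm26924 (74.1%), Hspa8 (40.8%) and mt-Rnr2 (27.1%) lie far above the line.

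Pairs of libraries were alike across genes. The SD over genes of the difference in log2(FPKM + 1) ran from 0.19 for replicates 2 and 4 to 0.22 for replicates 1 and 4, and Spearman's rank correlation across genes, which are not independent replicates, was 0.992 to 0.994. A chi-square of the counts per degree of freedom ran from 4.58 for replicates 1 and 3 to 23.5 for 1 and 4, so no library repeated another. Over nuclear protein-coding genes alone it ran from 3.18 for replicates 3 and 4 to 4.58 for 2 and 3, with 3.23 for 1 and 3 and 4.26 for 2 and 4. By this chi-square 2 and 4 were not the most alike pair. It differs from the log2 difference in both measure and gene set, so neither is set against the other.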

How the data were processed

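RNA-seq of 4 control libraries was analysed, and the other 4 libraries of the series entered no level or spread, but the deposited table was made over all 8. Novoalign 2.08.01, the mm10 assembly and DESeq2 are named per the submitters' processing notes. The sources used here do not give the counter, the annotation release, the filter or the use of strand. The authors deposited whole-number counts per gene, not normalized, and FPKM values, so named per the file headers. For a given gene, FPKM divided by count follows the library's total count, as read from the values. Their deposited log2 ratio and score columns compare the groups and were not used.

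Levels are the deposited FPKM; each mean has its SD over 4 libraries. No test was planned or made, since the libraries are a single group. The spread was the CV of FPKM beside counting error (1 over the square root of the mean count) and the common biological CV of edgeR 4.0.16 (R 4.3.3, TMM, filterByExpr with a minimum count of 10), tested on simulated data. Depth was 13994825 to 17346834 counts. Coordinates and transcripts came from GENCODE M21; 15833 identifiers matched and 263 did not. Copies were aligned with BLAST+ 2.17.0 at an e-value of 1e-10. A repeated symbol was taken from the row with the most counts.

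Genes were named by a rule: the 20 highest in mean FPKM, the 5 highest and the lowest in the table of each of 32 lists, the 10 with the highest and 10 with the lowest CV among genes of at least 5 FPKM and 100 counts, Ezh2, Xist and 4 Y-linked genes. Other list members, 17 genes with copies or overlaps, and Rpl8, Rpl3 and Rpl29 were named after their values were seen. Certain genes are not reported here. Members and lists were chosen with earlier results of these data known. Alternatives were TPM scaling, mitochondrial counts left out, TMM and DESeq2 1.42.0 sizes, other filters and pseudocounts, and each replicate left out.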

Additional observations from a re-analysis of the deposited data

Results flagged for a closer look

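A library was marked for a closer look where its value lay far from the other 3, with a gap to the nearest that took more of the whole range than Dixon's critical value for 4 samples. Of 252 sets of 4 values, 22 met this, with 8 in replicate 1, 5 in replicate 2, 5 in replicate 3 and 4 in replicate 4. Chance marks about 1 in 20 sets drawn at random, but these sets hold genes chosen for their spread, lists beside their own members and genes with reads in a single library, so the number is not set against that share.

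In replicate 1 the lens list summed to 15.2 FPKM against 2.20 to 3.004 in the others. Its crystallins were set apart the same way, with Cryaa at 3.19, Cryga at 2.15, Cryba1 at 2.06, Crybb1 at 1.89 and Crybb3 at 0.459 FPKM, where no other library exceeded 0.204 FPKM for any of them. Msx1 was highest in replicate 1 at 0.185 FPKM, and the germline list was lowest there at 0.981 FPKM.

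In replicate 2 Hba-a2 was highest at 112 FPKM against 13.6 to 29.4, and the keratin Krt5 at 0.888 FPKM against 0.153 to 0.163. Barx1 was highest there at 0.144 FPKM (3 counts) and Hoxa13 at 0.0271 FPKM (1 count), and Gad1 was lowest at 0.140 FPKM.

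In replicate 3 Gm11223 was lowest at 5.23 FPKM against 85.1 to 91.6, and its parent Stmn1 was lowest at 42.6 against 49.5 to 50.01 FPKM. The immediate early list was lowest at 41.7 FPKM. Hoxb9 and Hoxc9 were highest at 0.0260 and 0.0275 FPKM, each from 1 count, with no count in the other libraries.

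In replicate 4 Hspa8 was highest at 116 FPKM against 52.4 to 63.0. Cldn5 was highest at 6.19, the matrix gene Dcn at 0.719 and Tbx1 at 0.0324 FPKM, the last from 1 count.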

How the results depend on the processing

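Levels below about 1 FPKM rest on few counts, and genes missing from the table have no level here. Leaving out replicates moved the median CV of 7.44% to between 6.84% and 7.27%, and the common biological CV of 6.64% to between 6.61% and 6.80%. On a TPM scale 9031 genes reached 10, 1041 reached 100 and 51 reached 1000, since the values then sum to a fixed total. The median CV became 9.19% on the TPM scale, 6.13% with mitochondrial counts left out, 6.03% on TMM sizes, 6.03% with DESeq2 size factors, 8.52% without a filter and 6.32% for genes of at least 10 FPKM. The biological CV without mitochondrial counts was 6.54%. The mean SD of log2 differences between pairs, 0.21, was 0.25 on the TPM scale and 0.34 with a pseudocount of 0.1. Over protein-coding genes only, an alternative chosen after seeing the data, the top 10 took 5.80% and the top 100 took 20.6% of the summed FPKM. Without replicate 2 the non-retinal share was 0.127% in place of 0.192%, and without replicate 1 the lens list median was 0.0954 in place of 0.390 FPKM. Without replicate 2 the erythroid median was 6.39 in place of 10.95 FPKM. With mitochondrial counts left out, 18 of 32 list medians moved by more than their SD. With scalings chosen after seeing the data, the 6 dorsal genes highest in replicate 2 became 5 without mitochondrial counts, on TMM sizes and with DESeq2 sizes, as did the 6 ventral genes highest in replicate 4, and the 5 ventral genes lowest in replicate 2 became 4 on the TPM scale. The promoter motif comparison was not run, because 79.6% of the nuclear protein-coding genes matched a promoter, under the share needed, and the check is void. No paired analysis was possible because the libraries form a single group.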

Other observations

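Immediate early genes, which respond within minutes to handling and stimulation, were uneven in level. Jun stood at 20.6, 21.8, 19.4 and 21.5 FPKM and Dusp1 at 11.6, 11.9, 10.9 and 12.1 FPKM. Fos stood at 0.304, 0.114, 0.228 and 0.196 FPKM, and Fosb and Egr1 are not in the table analysed here.

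Tbx20 and Mbp each stood above every other member of their lists in each library. Tbx20, a T-box factor known from the heart, stood at 2.56, 2.56, 2.98 and 2.85 FPKM, while the other 5 genes of its list in the table reached at most 0.260 FPKM. Mbp, a myelin protein gene, stood at 6.12 ± 0.512 FPKM (SD, n = 4), and the next gene of its list, Pdgfra, had a mean of 1.03 FPKM.

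Rnu11, a small nuclear RNA of the minor spliceosome, stood at 159 FPKM in replicate 1 and at 50.03, 58.9 and 56.8 FPKM in the others. It was named after its values were seen.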
